A study of Homo sapiens with 10 samples.

Results

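The genes described here are 32 genes of cholesterol and fatty acid synthesis, chosen by name, in 2 human breast cancer cell lines: 18 enzymes that lead from acetyl-CoA to cholesterol, 6 regulators and sterol transporters, and 8 enzymes of fatty acid synthesis and desaturation. A gene was measured by the probe set with the highest mean among those that name it alone, which 30 of the 32 genes had; FDFT1 and HSD17B7 were not analysed here. The 30 are among 18417 genes with such a probe set. Of them 28 passed the filter on dim genes (mean log2 value of at least 6.03, which 12892 of the 18417 genes reached), and ABCA1 and FADS1 did not. SKBR3 carries amplified ERBB2, MDA-468 is basal-like with abundant EGFR, and per the labels both are breast cancer cells expressing mutant p53. Cells grown in RPMI 1640 with FCS were transfected with a control RNA duplex (siControl) or one that targets Che-1, the AATF product (siChe-1), and total RNA was taken 48 h later for Affymetrix arrays: 2 siControl and 2 siChe-1 arrays of SKBR3, and 3 and 3 of MDA-468. A transient transfection leaves untransfected cells in the RNA, and the labels name a single siChe-1 reagent, so a response to AATF loss and a response to the duplex cannot be told apart. All p-values measure the spread between these arrays, which may be technical, because no label says that replicates were separate cultures.

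Cholesterol is built from acetyl-CoA through mevalonate, isoprenoid diphosphates, squalene and lanosterol, and fatty acids are built from acetyl-CoA through malonyl-CoA. Genes of both routes are activated by the sterol regulatory element binding proteins, encoded by SREBF1 and SREBF2. These are made as membrane precursors in the endoplasmic reticulum and are escorted to the Golgi for cleavage by SCAP, whereas INSIG proteins hold SCAP back when sterols are plentiful. Many tumour lines make much of their own lipid, and fatty acid synthase is a known product of ERBB2-positive breast cells.

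The promoters of members that fell together and of members that did not are shown first, from RefSeq on GRCh38.p14, as the 250 bases before the gene's start, 5′ to 3′ on the gene's strand. FDPS, INSIG1 and SCD fell in MDA-468, STARD4 rose in both lines, HMGCS1 is the sterol enzyme with values above 0 in both lines, and SREBF2 encodes the sterol-responsive factor itself. Capitals mark CCAAT, the core of the NF-Y site that commonly accompanies sterol response elements, on either strand (ATTGG when on the other strand), and in SREBF2 also TCACNCCAC, the core of a classical sterol response element.
FDPS, chr1:155308616-155308865, plus strand: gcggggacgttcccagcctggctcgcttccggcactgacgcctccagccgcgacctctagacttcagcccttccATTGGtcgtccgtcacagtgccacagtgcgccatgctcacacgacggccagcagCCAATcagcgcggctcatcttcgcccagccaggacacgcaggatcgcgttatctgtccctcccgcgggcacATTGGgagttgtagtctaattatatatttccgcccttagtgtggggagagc
INSIG1, chr7:155297628-155297877, plus strand: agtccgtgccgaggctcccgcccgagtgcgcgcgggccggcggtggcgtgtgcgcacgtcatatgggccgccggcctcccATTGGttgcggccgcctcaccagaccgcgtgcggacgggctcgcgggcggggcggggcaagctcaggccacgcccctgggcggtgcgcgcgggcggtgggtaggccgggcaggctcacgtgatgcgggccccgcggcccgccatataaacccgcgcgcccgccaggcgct
SCD, chr10:100346983-100347232, plus strand: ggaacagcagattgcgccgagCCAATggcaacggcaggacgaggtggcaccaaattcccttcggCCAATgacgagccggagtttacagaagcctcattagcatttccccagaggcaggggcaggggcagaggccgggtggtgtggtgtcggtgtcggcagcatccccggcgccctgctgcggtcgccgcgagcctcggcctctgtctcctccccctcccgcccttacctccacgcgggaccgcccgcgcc
STARD4, chr5:111512536-111512785, minus strand: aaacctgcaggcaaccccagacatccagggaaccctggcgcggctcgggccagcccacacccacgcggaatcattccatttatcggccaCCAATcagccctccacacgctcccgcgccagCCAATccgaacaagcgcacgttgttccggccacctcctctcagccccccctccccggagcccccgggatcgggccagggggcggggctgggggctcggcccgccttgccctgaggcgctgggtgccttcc
HMGCS1, chr5:43313413-43313662, minus strand: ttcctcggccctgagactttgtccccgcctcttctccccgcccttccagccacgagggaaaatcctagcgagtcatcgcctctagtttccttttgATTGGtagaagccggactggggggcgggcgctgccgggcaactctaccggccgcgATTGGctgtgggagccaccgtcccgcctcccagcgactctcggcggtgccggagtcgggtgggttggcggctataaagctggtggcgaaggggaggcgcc
SREBF2, chr22:41832855-41833104, plus strand: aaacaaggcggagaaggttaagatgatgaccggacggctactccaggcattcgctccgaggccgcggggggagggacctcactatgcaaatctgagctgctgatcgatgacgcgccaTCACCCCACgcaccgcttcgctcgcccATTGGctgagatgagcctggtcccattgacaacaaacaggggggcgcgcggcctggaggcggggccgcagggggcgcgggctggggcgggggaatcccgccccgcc

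All 6 of these promoters hold CCAAT, which the choice favoured. The genes were picked by name, and for a gene with more than 1 window the window with most CCAAT matches is shown. Searched in windows from 250 bases before to 50 bases after the start, on both strands, CCAAT was found in 21 of the 28 members with a window (75%), with 4352 of 10260 tested genes with a window (42.4%) beside them and 34.6% of all 35116 windows. These 28 are not the 28 tested members: they include HSD17B7, ABCA1 and FADS1, which were not tested, and lack ACAT2, SQLE, FASN and FDFT1. Over the 25 tested members with a window, CCAAT was found in 20 (80%). GGGCGG, a core of Sp1 sites, was found in 27 of 28 members (96.4%) against 75.8% of tested genes. TCACNCCAC was found in SREBF2 alone (3.57% of members against 1.4% of tested genes). A shorter sterol response core, CACCCCAC, was found in SREBF2 and ABCA1 (7.14% against 3.71%) and overlaps the longer match in SREBF2. Over the 25 tested members with a window, the shares were 96% for GGGCGG and 4% for TCACNCCAC. CACCCCAC was then also at 4%, near the 3.71% of tested genes, with SREBF2 alone. The interferon-stimulated response element core was found in 0 of 28 members against 3.67% of tested genes. Of the members 8 have more than 1 window, which gives them more chances of a match. The shares describe letters in a window. CCAAT stood both in promoters of genes that fell and in those of STARD4 and HMGCS1. It was not found for PMVK, CYP51A1, SCAP, SREBF1, ABCA1, ELOVL6 and FADS1. Of these, PMVK, CYP51A1, SREBF1 and ELOVL6 were called lower in MDA-468.

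With siChe-1, AATF signal was 63.3% of control for SKBR3, and for MDA-468 it was 30.5%. The median log2 value of an array was 6.36 to 6.45 for SKBR3 and 6.87 to 6.94 for MDA-468, so levels were compared within a line and only fold changes between lines. For line identity alone, levels were also set side by side. With siControl, ERBB2 read 12.33 in SKBR3 and 8.29 in MDA-468, and EGFR 7.91 and 12.25, the directions given above for these lines. With siControl, adipocyte markers averaged 5.23 to 5.44, below the filter level of 6.03, and 1 of 5 (PLIN1) lay above it. With siChe-1 the 6 measured basal markers were all called higher in MDA-468 and 2 of them in SKBR3, their array means going from 9.98 to 10.10 up to 11.21 to 11.25 in MDA-468 and from 7.22 to 7.37 up to 7.52 to 7.69 in SKBR3. The mean of the 8 luminal markers went from 11.01 to 11.10 down to 10.81 to 10.91 in SKBR3 (1 called lower). In MDA-468 it went from 10.11 to 10.16 down to 9.81 to 9.89 (3 called lower, 1 higher). AGR2 gave the lowest values, -0.90 and -2.04. The list medians were -0.16 in SKBR3 and -0.08 in MDA-468, beside -0.08 and -0.02 over all genes. KRT8 and KRT18 went up in both lines. They gave 0.12 and 0.12 in SKBR3, neither called, and group means of 12.67 to 12.85 and 12.48 to 12.68 in MDA-468. The mean of 5 leukocyte markers went from 4.69 to 4.88 up to 5.20 to 5.35 in SKBR3 and from 5.69 to 5.81 up to 5.88 to 6.01 in MDA-468. Of those 5, CD14 and CD68 passed the filter and were called higher in both lines (CD14 0.53 and 0.64, CD68 1.49 and 0.46), while PTPRC, the pan-leukocyte marker, stayed below the filter level and with no filter gave 0.05 in SKBR3 and -0.33 in MDA-468. In MDA-468 the means of endothelial markers (5.67 to 5.73 up to 5.87 to 6.03) and fibroblast markers (5.37 to 5.48 up to 5.52 to 5.65) were also higher with siChe-1. No endothelial marker passed the filter. By group means in MDA-468, KDR went from 6.60 to 7.13, CDH5 from 5.68 to 5.93 and VWF from 5.23 to 5.57. PECAM1 went down, from 5.26 to 5.10. Of the fibroblast markers 3 passed the filter and 1 of these was called higher in MDA-468, while DCN went from 3.55 to 3.53. The part of all these marker shifts in the results below was not tested. The 2 SKBR3 siChe-1 arrays differed for these genes: 24 of the 28 tested members were lower on replicate 2 than on replicate 1, against 59.3% of all genes tested. With 2 arrays, which of them stands apart cannot be told. The SKBR3 median log2 fold change of the sterol enzymes, -0.23, became -0.15 without replicate 2 and -0.29 without replicate 1. Over all genes tested it was -0.08, and -0.09 without either replicate. These fits leave 1 siChe-1 array in SKBR3.

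In MDA-468 both branches fell with siChe-1. Of 16 tested sterol enzymes 14 were called lower (limma adjusted p below 0.05), 0 higher and 2 not called, and of 7 tested fatty acid genes 7 were called lower; among all 12892 genes tested, 27% were called lower, 16.4% higher and 43.5% in either direction. The median log2 fold change was -0.74 over the sterol enzymes and -0.73 over the fatty acid genes, beside -0.02 over all genes tested. The siChe-1 arrays lay below all siControl arrays for 24 of 28 members, against 36% of all genes. In RNA of whole cultures, fewer cells that express a gene and less of its RNA per cell cannot be told apart.

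In SKBR3 the same genes moved little. Of 16 tested sterol enzymes 4 were called lower (ACAT2, MVK, CYP51A1 and DHCR7), and of 7 fatty acid genes 1 was, ACACA, while 17.1% of all genes tested were called lower, 6.64% higher and 23.7% in either direction. The median log2 fold change was -0.23 in each branch, beside -0.08 over all genes. FADS2, among the 7 fatty acid genes, read below the filter level in SKBR3, so a fall there had little room to show. Arrays did not overlap, with siChe-1 lower, for 18 of 28 members, against 37.8% of all genes. These SKBR3 calls did not hold under every setting: fitted alone, the line gave 0 falling sterol enzymes and 0 falling fatty acid genes, and with no filter 2 and 0. Calls over all genes, in either direction, also went from 3057 to 669 with the line fitted alone. With no filter they were 2678 of 18417 genes.

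**Figure D1:**
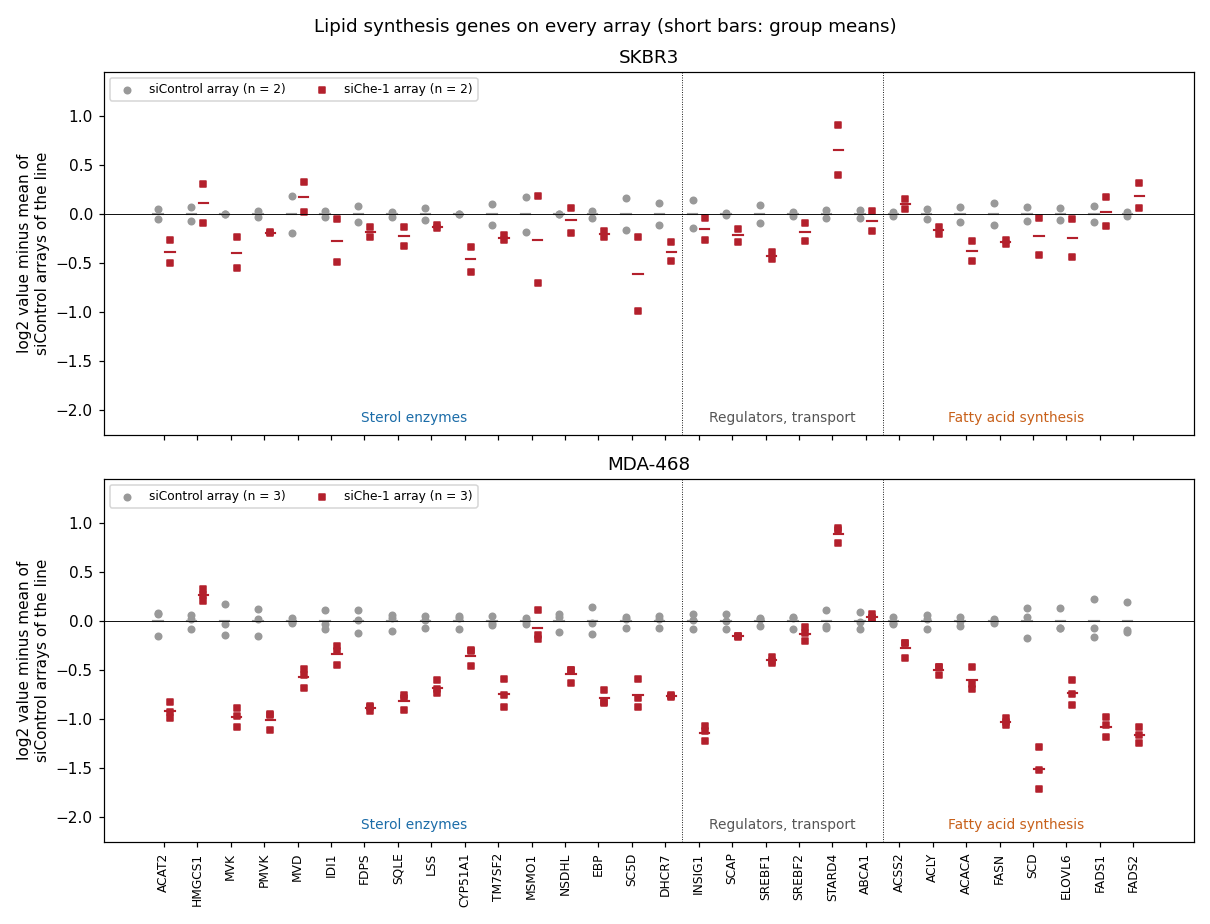
Values of the 30 measured genes on every array, as the log2 value minus the mean of the siControl arrays of the same line; grey circles are siControl arrays, red squares siChe-1 arrays and short bars group means. In MDA-468 the siChe-1 arrays lie below the siControl arrays for most genes of both branches, with STARD4 and HMGCS1 above them; in SKBR3 most shifts are small, and the group mean of STARD4 (0.65) is above 0 and that of SC5D (-0.61) below it, with siChe-1 arrays that stand apart from each other.

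The mevalonate arm runs from ACAT2, the cytosolic thiolase that joins acetyl-CoA units, to FDPS, which makes farnesyl diphosphate. In MDA-468, 6 of its 7 genes fell, with a median of -0.88. PMVK, the phosphomevalonate kinase, read 9.01, 9.11 and 8.84 on the siControl arrays and 8.05, 8.03 and 7.88 on the siChe-1 arrays (log2 values), a change of -1.004 ± 0.09 (log2 fold change ± SE, adjusted p = 4.57e-06). The groups did not overlap, and PMVK signal with siChe-1 was 49.9% of control. In SKBR3 it read 8.37 and 8.31 against 8.16 and 8.15, a change of -0.19 ± 0.11 that did not pass the test (adjusted p = 0.235).

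MVK, the kinase before it, read 8.39, 8.19 and 8.09 against 7.34, 7.26 and 7.15 in MDA-468 (-0.98 ± 0.11, adjusted p = 2.42e-05). In SKBR3 it read 8.02 and 8.02 against 7.78 and 7.47 (-0.39 ± 0.13, adjusted p = 0.0486), close to the threshold. ACAT2 read 11.65, 11.64 and 11.41 against 10.64, 10.74 and 10.58 in MDA-468 (-0.91 ± 0.09, adjusted p = 1.78e-05), with all siChe-1 arrays lower. Its change in SKBR3 was -0.38 ± 0.12 (adjusted p = 0.0351). FDPS fell by 0.88 ± 0.08 in MDA-468, from 10.98, 10.88 and 10.75 to 10.01, 9.96 and 10.00; in SKBR3 its change was -0.18 ± 0.10 (adjusted p = 0.232). MVD, the decarboxylase, fell by 0.57 ± 0.11 in MDA-468 and had a value of 0.17 ± 0.14 in SKBR3, where its arrays overlapped.

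HMGCS1 and IDI1 moved least in this arm in MDA-468. HMGCS1, which makes HMG-CoA, read 10.37, 10.32 and 10.23 with siControl and 10.51, 10.63 and 10.57 with siChe-1 in MDA-468. All siChe-1 arrays were thus higher, against 23.9% of all genes with arrays placed so, but the change of 0.27 ± 0.10 did not pass (adjusted p = 0.0582, 95% interval 0.04 to 0.49). It passed under 7 of 19 alternatives, with values of 0.23 to 0.35 throughout. In SKBR3 its arrays overlapped (0.11 ± 0.13, adjusted p = 0.594). IDI1, the isomerase, fell in MDA-468 by 0.34 ± 0.11 (adjusted p = 0.0297), a call lost under 5 of 19 alternatives.

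From squalene to cholesterol, 8 of 9 tested enzymes fell in MDA-468, with a median of -0.74, and 2 in SKBR3. SQLE, the squalene epoxidase, read 10.99, 11.02 and 10.86 against 10.05, 10.18 and 10.21 in MDA-468, a fall of 0.81 ± 0.08 (adjusted p = 1.73e-05). LSS, which closes the rings to lanosterol, fell there by 0.68 ± 0.07, EBP, a sterol isomerase, by 0.79 ± 0.09, and TM7SF2, a sterol reductase, by 0.74 ± 0.09. In SKBR3 none of these 4 passed, with values of -0.13 (LSS) to -0.24 (TM7SF2). DHCR7, whose product is cholesterol, read 12.10, 12.13 and 12.02 against 11.31, 11.33 and 11.32 in MDA-468, and 10.24 and 10.02 against 9.85 and 9.65 in SKBR3. It was called in both lines, at -0.76 ± 0.08 (adjusted p = 2.83e-05) and -0.38 ± 0.10 (adjusted p = 0.0223).

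The next enzymes strip methyl groups from lanosterol. CYP51A1 fell in both lines, by 0.46 ± 0.11 in SKBR3 (adjusted p = 0.0108) and by 0.35 ± 0.09 in MDA-468 (adjusted p = 0.00648), and its second probe set gave -0.36 and -0.30. MSMO1, the methylsterol oxidase, read 11.22, 11.19 and 11.25 against 11.04, 11.08 and 11.33 in MDA-468, where the groups overlapped (-0.07 ± 0.19, adjusted p = 0.799, 95% interval -0.48 to 0.34). In SKBR3 its siChe-1 arrays read 9.48 and 8.59, the widest spread of any tested member, around siControl values of 9.12 and 9.48. NSDHL, which acts after MSMO1, fell by 0.54 ± 0.09 in MDA-468 and had a value of -0.06 ± 0.11 in SKBR3. SC5D, a late desaturase, fell by 0.75 ± 0.17 in MDA-468 and had a value of -0.61 ± 0.20 in SKBR3, just short of the threshold (adjusted p = 0.0504).

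Among the regulators, INSIG1 fell in MDA-468 and the genes of the factors themselves moved less. INSIG1, the retention protein and itself a known target of the pathway, read 10.03, 10.10 and 9.95 with siControl and 8.81, 8.96 and 8.90 with siChe-1, a change of -1.14 ± 0.10 (adjusted p = 4.11e-06) to 45.4% of control. In SKBR3 it read 8.56 and 8.27 against 8.38 and 8.15, with overlapping groups (-0.15 ± 0.12, adjusted p = 0.414). SREBF1 fell in both lines: it read 8.51 and 8.34 against 8.03 and 7.96 in SKBR3 (-0.43 ± 0.09, adjusted p = 0.00765) and 8.22, 8.21 and 8.14 against 7.82, 7.78 and 7.77 in MDA-468 (-0.40 ± 0.07, adjusted p = 0.00116). Its SKBR3 call was lost with the line fitted alone (adjusted p = 0.156) and without siControl replicate 1 (adjusted p = 0.0558).

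SREBF2 did not pass in either line. It read 9.04 and 9.01 against 8.93 and 8.75 in SKBR3 (-0.18 ± 0.10, adjusted p = 0.208) and 9.06, 9.06 and 8.94 against 8.96, 8.82 and 8.89 in MDA-468 (-0.13 ± 0.08, overlapping groups, 95% interval -0.30 to 0.05, adjusted p = 0.225). The interval in MDA-468 does not reach the enzymes' median of -0.74. That sets 1 gene beside a median of others, and cleavage of the factor was not measured. Whether SREBF2 bears on the enzymes' changes was not tested. SCAP, the escort, gave -0.22 ± 0.09 in SKBR3 and -0.16 ± 0.07 in MDA-468 (adjusted p = 0.105 and 0.113), with siChe-1 arrays below siControl arrays in both.

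STARD4 was the member called higher in both lines (3.57% of those tested, against 4.85% of all genes), and the only member called higher in either. It encodes a carrier that moves sterols between membranes and is itself a known target of SREBF2. STARD4 read 7.76 and 7.84 with siControl and 8.71 and 8.19 with siChe-1 in SKBR3, a rise of 0.65 ± 0.15 (adjusted p = 0.00981). Both siChe-1 arrays were higher, though they stood apart from each other, and the value was 0.91 without the lower of them and 0.40 without the higher. In MDA-468 it read 9.05, 8.87 and 8.88 against 9.73, 9.86 and 9.88, a rise of 0.89 ± 0.12 (adjusted p = 0.000127), or 1.85-fold. ABCA1, the sterol exporter, lay below the filter level on all 10 arrays, at 5.15 to 5.59, and was not tested.

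**Figure D2:**
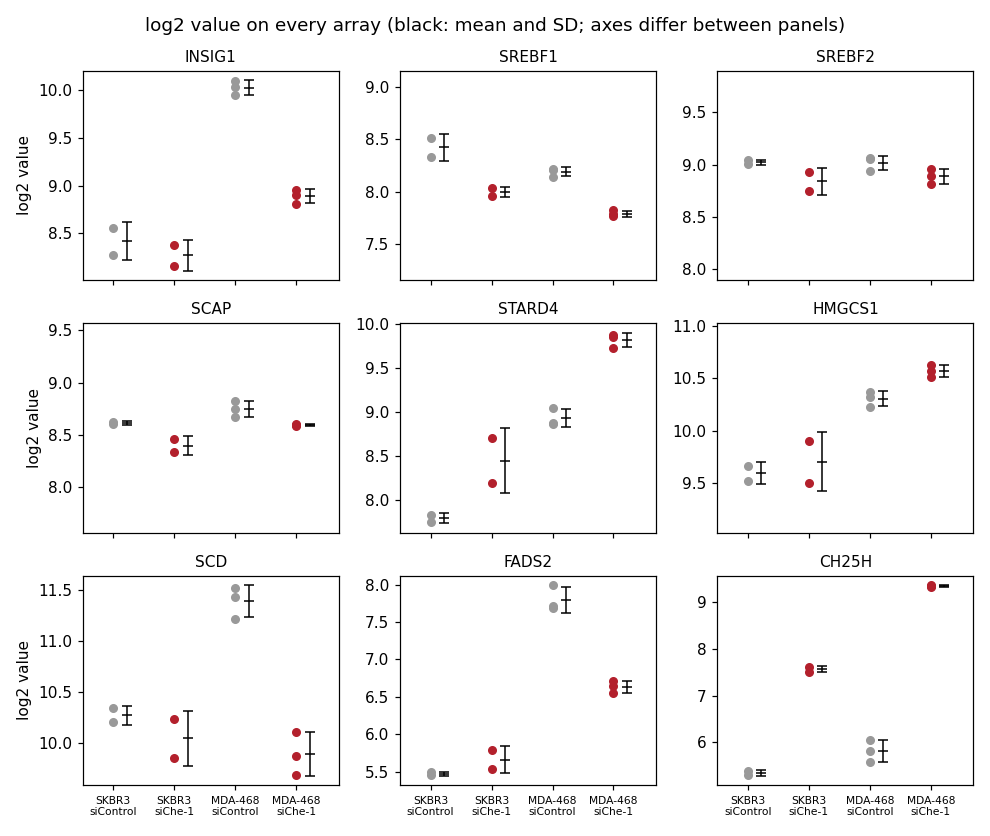
log2 values of 9 genes on every array (grey siControl, red siChe-1) with the mean and SD of each group in black; the vertical axes differ between panels. INSIG1, SCD and FADS2 are lower with siChe-1 in MDA-468, STARD4 and CH25H are higher in both lines, and SREBF2 and SCAP move by less than 0.3.

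The deepest falls among the tested members were those of SCD and FADS2 in MDA-468. SCD, the desaturase that makes monounsaturated fatty acids, read 11.52, 11.44 and 11.22 with siControl and 9.69, 9.87 and 10.11 with siChe-1, a change of -1.50 ± 0.13 (adjusted p = 4.97e-06). Its signal was 35.2% of control, and it ranked 57 from the lowest fold change among 12892 genes. In SKBR3 it read 10.34 and 10.20 against 10.24 and 9.85, with overlapping groups (-0.23 ± 0.16, adjusted p = 0.356). FADS2, a desaturase of polyunsaturated fatty acids, fell by 1.16 ± 0.10 in MDA-468, from 7.99, 7.71 and 7.69 to 6.64, 6.72 and 6.55. In SKBR3 it read 5.46 to 5.79 on all arrays, below the filter level, so a fall there had little room to show; it passed the filter through its MDA-468 values. FADS1, its neighbour in the same route, did not pass the filter; with no filter it gave -1.07 in MDA-468 (adjusted p = 3.62e-05) and 0.02 in SKBR3 (adjusted p = 0.948), where it read 4.74 to 5.03.

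FASN, the fatty acid synthase, read 10.05, 10.00 and 10.03 against 9.04, 8.97 and 8.995 in MDA-468, a fall of 1.03 ± 0.08 (adjusted p = 1.48e-06) with arrays of a group within 0.1 of each other. In SKBR3 it read 11.32 and 11.09 against 10.90 and 10.94 (-0.29 ± 0.10, adjusted p = 0.0507), with both siChe-1 arrays lower and the threshold just missed. ACACA, which makes malonyl-CoA, fell in both lines, by 0.38 ± 0.11 in SKBR3 (adjusted p = 0.0304) and by 0.60 ± 0.09 in MDA-468 (adjusted p = 0.000259). ELOVL6, an elongase, fell by 0.73 ± 0.11 in MDA-468 and gave -0.24 ± 0.14 in SKBR3. The enzymes that supply acetyl-CoA fell least in MDA-468: ACLY, which uses citrate, by 0.50 ± 0.07, and ACSS2, which uses acetate, by 0.27 ± 0.07 (adjusted p = 0.0116). In SKBR3 ACLY gave -0.17 ± 0.09 and ACSS2 0.10 ± 0.09, neither past the test.

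Tested directly, the change differed between the lines for 15 of 28 members (53.6%), all with the lower value in MDA-468, against 8.49% of all genes tested in this direction, 10.7% in the other and 19.2% in either. Taken as SKBR3 minus MDA-468, the difference was 1.28 ± 0.21 for SCD (adjusted p = 0.00184) and 0.99 ± 0.15 for INSIG1 (adjusted p = 0.00138). For FADS2 it was 1.35 (adjusted p = 0.000258), a value that cannot be ranked with the others because FADS2 lay below the filter level in SKBR3, where a fall had little room to show. PMVK (0.82), MVD (0.75), FASN (0.74) and FDPS (0.70) followed. Of the 15 differences 7 held under all alternatives they were tested in: SCD, INSIG1, PMVK, FASN, FDPS and LSS, and FADS2 with the same limit and without the filter at the 50th percentile, which removed it. AATF itself changed by 1.05 less in SKBR3 (log2, adjusted p = 0.000215), and whether the depth of the AATF fall bears on these differences was not tested. The difference was not called for SREBF1 (-0.03, 95% interval -0.29 to 0.23), SREBF2 (-0.05, interval -0.33 to 0.22), CYP51A1 (-0.11, interval -0.41 to 0.19) or STARD4 (-0.23, interval -0.65 to 0.19). Called lower in both lines were 6 members (ACAT2, MVK, CYP51A1, DHCR7, SREBF1 and ACACA), 21.4% of those tested, against 9.32% of all genes. All 6 lost their SKBR3 call with the line fitted alone, and all but SREBF1 with a replicate block. In these settings SKBR3 calls over all genes also fell, from 3057 to 669 and 1249.

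**Figure D3:**
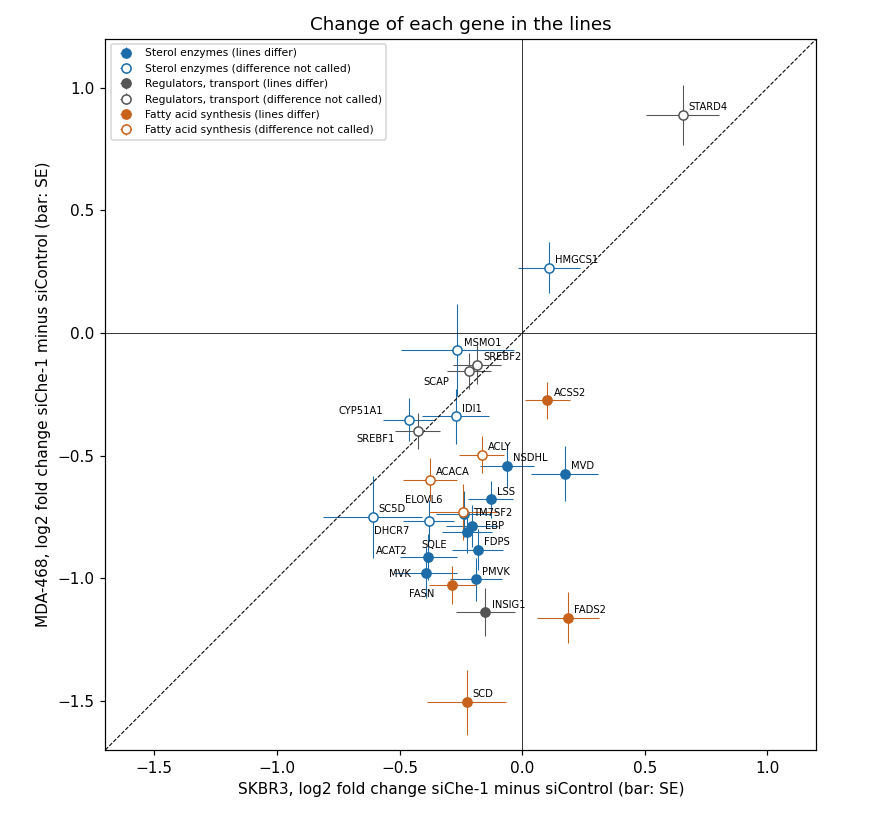
log2 fold change of each of the 28 tested genes in SKBR3 (horizontal) and MDA-468 (vertical), with the SE of the fit as bars, coloured by branch; filled points have a called difference between the lines and the dashed line marks equal change. All 15 filled points lie below the dashed line, SCD and FADS2 far from it. FADS2 lay below the filter level in SKBR3, where a fall had little room to show, so its distance cannot be ranked with the others. STARD4 is the only point called higher in both lines, with HMGCS1 also above 0 in both but not called.

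Genes around the pathway were counted from 5 further lists. In the isoprenoid branch, which leads from farnesyl diphosphate to ubiquinone, dolichol and prenylated proteins, 3 of 11 tested genes fell in SKBR3 (27.3%, against 17.1% of all genes) and 5 in MDA-468 (45.5%, against 27%), and 0 rose. GGPS1, which makes geranylgeranyl diphosphate, fell by 0.38 in SKBR3 and 0.40 in MDA-468. PDSS1, a ubiquinone side chain enzyme, fell by 0.49 in SKBR3 and 0.30 in MDA-468, and FNTA, a prenyltransferase subunit, fell by 0.37 in SKBR3. PDSS2, the partner of PDSS1, fell by 0.95 in MDA-468 and NUS1, of dolichol synthesis, by 0.35.

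Among 11 tested genes of SREBP control, 5 fell in SKBR3 (45.5%, against 17.1% of all genes) and 4 in MDA-468 (36.4%, against 27%), and 0 rose. INSIG2, the second retention protein, went a different way from INSIG1: it read 8.81 and 8.90 against 8.32 and 7.95 in SKBR3 (-0.72 ± 0.12, adjusted p = 0.00238) and 10.69, 10.75 and 10.59 against 10.76, 10.90 and 10.92 in MDA-468 (0.19, adjusted p = 0.168). Its difference between the lines was -0.90 (adjusted p = 0.00296), opposite in sign to that of INSIG1. RNF139, a ubiquitin ligase of sterol control, fell in both lines, by 0.49 in SKBR3 and 0.54 in MDA-468. PAQR3, a Golgi anchor, fell by 0.42 in SKBR3, and SPRING1, a cofactor of SREBP cleavage, fell by 0.62 and TMEM33 by 0.52 in MDA-468.

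Among 16 tested genes of oxysterols, LXR and sterol efflux, 2 rose and 1 fell in SKBR3 (12.5% and 6.25%, against 6.64% and 17.1% of all genes), and 5 rose and 4 fell in MDA-468 (31.2% and 25%, against 16.4% and 27%). CH25H, a cholesterol hydroxylase inducible by interferon whose oxysterol product is known to hold SREBPs in the endoplasmic reticulum, read 5.38 and 5.30 against 7.61 and 7.52 in SKBR3 and 5.57, 5.81 and 6.05 against 9.34, 9.34 and 9.37 in MDA-468. It was called higher in both lines (adjusted p = 3.92e-07 and 8.61e-10), with fitted changes of 2.22 and 3.54. Its siControl means lay below the filter level, which it passed through its siChe-1 values, so the sizes of these changes rest on a dim baseline and were not compared between the lines. Whether it bears on the members' changes was not tested. CYP27A1 (4.88) and CYP7B1 (5.41) also had SKBR3 siControl means below the filter level, so a fall there had little room to show. LPCAT3, a phospholipid acyltransferase, fell by 0.67 in SKBR3 and 1.01 in MDA-468. LIPA, the lysosomal lipase, rose by 0.77 in SKBR3 and 0.50 in MDA-468, and NCEH1, a cholesterol ester hydrolase, by 1.11 in MDA-468.

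Of 21 tested genes of fatty acid elongation and activation, 3 rose and 8 fell in SKBR3 (14.3% and 38.1%, against 6.64% and 17.1% of all genes), and 4 rose and 10 fell in MDA-468 (19% and 47.6%, against 16.4% and 27%). ACSL4 (3.36), ELOVL2 (5.12) and SCD5 (5.53) had SKBR3 siControl means below the filter level, so a fall there had little room to show. ELOVL7, an elongase, rose in both lines, by 0.87 and 1.09. ACSL1, an acyl-CoA synthetase, rose by 1.09 in SKBR3 and gave -0.14 in MDA-468 (difference 1.23, adjusted p = 8.83e-05). ACSL5 and the second stearoyl desaturase SCD5 rose by 0.96 and 0.99 in MDA-468, where SCD fell, and ACSL5 rose by 0.36 in SKBR3; THRSP, a lipogenic factor, fell by 0.53 in SKBR3. Of 14 tested genes of glycerolipids and storage, 0 rose and 3 fell in SKBR3 (HILPDA by 0.78, GPAM by 0.68 and LPIN1 by 0.50), and 2 rose and 6 fell in MDA-468. The falling share was 21.4% in SKBR3, against 17.1% of all genes, and 42.9% in MDA-468, against 27%, where the rising share was 14.3%, against 16.4%. In MDA-468 HILPDA, a lipid droplet protein, fell by 1.18 and GPAM, the first acyltransferase of glycerolipid synthesis, by 0.82, while MGLL, the monoglyceride lipase, rose by 1.05.

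**Figure D4:**
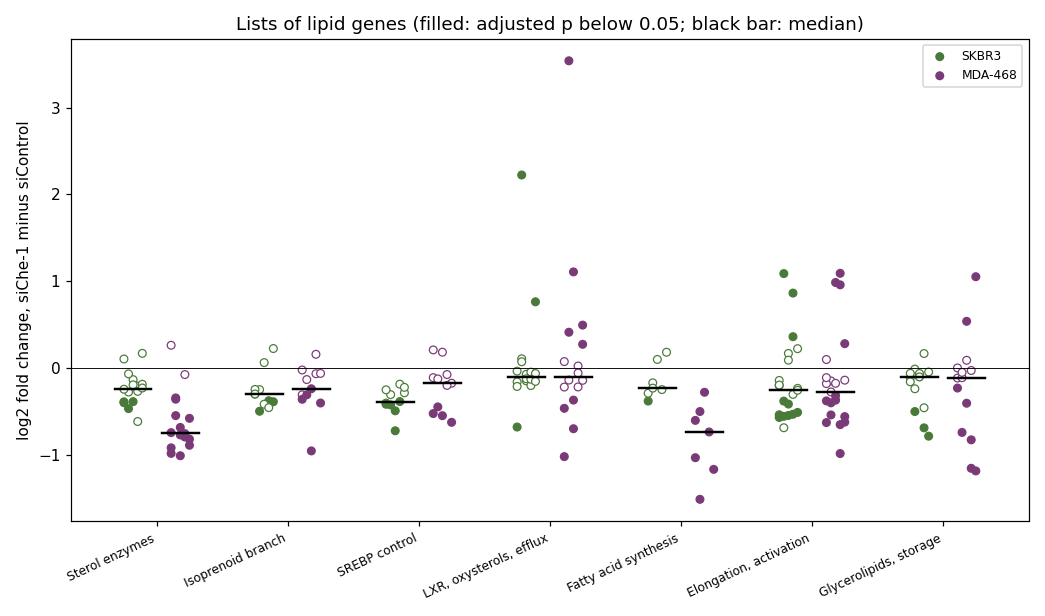
log2 fold change of every tested gene in 7 lists of lipid genes, in SKBR3 (green) and MDA-468 (purple); filled points passed the test and black bars are medians. The medians of sterol enzymes and fatty acid synthesis in MDA-468 lie near -0.7, below those of the other lists, and CH25H is the highest point in both lines.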

How the data were processed

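Expression was measured on 10 Affymetrix arrays. The deposited table holds log2 intensities per probe set, which the authors computed by RMA; the submitters' processing notes name Affymetrix Expression Console as the tool. Its version, and the set of arrays normalized together, were not given in the sources used here. RMA understates fold changes of very bright or dim probe sets, and the number of arrays limits the precision. Of 33297 probe sets the platform annotation gave 1 symbol to 19460 and several to 1754, and the other 12083 are unnamed here; symbols were updated by gene ID (19429 matched) with RefSeq's gene table of GRCh38.p14. The brightest probe set stood for a gene, and a gene needed a mean log2 value at or above the 30th percentile (6.03).

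limma 3.58.1 in R 4.3.3 (lmFit and eBayes) fitted 1 mean per group over the 10 arrays and 12892 genes, with 6 residual and 4.92 prior degrees of freedom. Contrasts were siChe-1 minus siControl per line and their difference, with Benjamini-Hochberg adjustment over all genes tested and a threshold of 0.05. The fit was tested on simulated data. Replicate numbers were not treated as pairs. Members, companion lists and tests were chosen with earlier results of these data known. All members were named, and up to 3 genes with the smallest p per further list and line. Alternatives were other filters (none, or the 50th percentile), separate fits per line, a replicate block, repeated quantile normalization, median centring, an intensity trend, averaged probe sets, leaving out each array, and a crossed block added after the data were seen.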

Additional observations from a re-analysis of the deposited data

Results flagged for a closer look

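These results were picked out because the change with siChe-1 differed between the lines by limma's test of the difference (adjusted p below 0.05). As SKBR3 minus MDA-468, the difference was 0.53 for ACAT2, 0.58 for MVK, 0.82 for PMVK, 0.75 for MVD and 0.70 for FDPS in the mevalonate arm. From squalene onward it was 0.59 for SQLE, 0.55 for LSS, 0.50 for TM7SF2, 0.48 for NSDHL and 0.58 for EBP. INSIG1 gave 0.99, and the fatty acid genes ACSS2, FASN, SCD and FADS2 gave 0.38, 0.74, 1.28 and 1.35. In SKBR3 FADS2 lay below the filter level. For MVD, ACSS2 and FADS2 the value was above 0 in SKBR3 (0.17, 0.10 and 0.19, none called) and below 0 in MDA-468. Groups of 2 or 3 arrays are too small for the rule on outlying samples.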

How the results depend on the processing

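All 24 members called in MDA-468 kept their direction under the 19 alternatives (18 for FADS2, which the filter at the 50th percentile removes), and 22 stayed called under each that was run for them; IDI1 lost its call under 5, and ACSS2 without siControl replicate 1 of MDA-468 (adjusted p = 0.0532). In SKBR3 all 7 calls kept their direction and 0 stayed called under every alternative; of 15 differences between the lines 7 did. Against 4 falling sterol enzymes, 1 falling fatty acid gene and 1 rising member in SKBR3, no filter gave 2, 0 and 1, and each line fitted alone gave 0, 0 and 0. Over all genes, calls in SKBR3 in either direction were 3057 in the main fit, 2678 with no filter and 669 with the line alone. A filter at the 50th percentile, median centring and an intensity trend each gave 2 falling fatty acid genes in SKBR3. Calls there over all genes were 3152, 3042 and 3346. Rising members in MDA-468 became 2, HMGCS1 being the second, with the 50th percentile filter, lines alone, quantile normalization, the trend and the crossed block. Genes called there in either direction then numbered 4982, 6749, 5659, 5718 and 5804, beside 5602 in the main fit. With 1 array left out, falling sterol enzymes in SKBR3 ranged from 0 to 8, falling fatty acid genes from 0 to 2, rising members from 0 to 1 there and 1 to 2 in MDA-468, and differing members from 8 (without SKBR3 siControl replicate 2) to 17.

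Same-numbered arrays did not deviate together (r = -0.556 in SKBR3, and -0.491, 0.00154 and -0.276 in MDA-468), so the numbers were not used as pairs. Arrays of unlike numbers gave r = 0.556 in SKBR3, where 2 arrays a group fix it as the mirror of -0.556. In MDA-468 they gave -0.202 to 0.444. Whether arrays of unlike numbers share a batch was not tested. A replicate block gave 0 falling sterol enzymes, 0 falling fatty acid genes and 0 rising members in SKBR3, 13 and 7 falling in MDA-468, and 8 differences. Over all genes, calls in either direction fell too. They went from 3057 to 1249 in SKBR3, 5602 to 4412 in MDA-468 and 2471 to 1104 for the difference. Crossed numbers in SKBR3, chosen after the data were seen, gave 5, 1 and 1 in SKBR3 and 14 differences, beside 3267 and 2583 over all genes.

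Signs turned only for uncalled values. Quantile normalization gave 0.0067 for NSDHL in SKBR3, 0.021 for MSMO1 in MDA-468 and 0.019 for the SREBF1 difference. With 1 array left out, SKBR3 values ranged from -0.092 to 0.31 for HMGCS1, -0.016 to 0.36 for MVD, -0.71 to 0.18 for MSMO1 and -0.19 to 0.065 for NSDHL. Differences ranged from -0.36 to 0.042 for HMGCS1, -0.15 to 0.29 for IDI1, -0.23 to 0.017 for CYP51A1, -0.64 to 0.25 for MSMO1, -0.24 to 0.52 for SC5D, -0.13 to 0.0027 for SCAP, -0.11 to 0.063 for SREBF1, -0.15 to 0.039 for SREBF2 and -0.49 to 0.024 for STARD4. The cause of these shifts was not tested. Genes below the filter level, FADS2 in SKBR3 among them, have little room to fall.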
